A study of Mus musculus with 19 samples.

Results

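Genes that build and drain lipid droplets were followed in E0771 carcinoma cells recovered from tumors of obese and lean mice. The set holds 10 of the 39017 genes in the count table and was defined by gene name and role, with earlier results of these data known: the droplet coat genes Plin2 and Plin3, the lipolysis inhibitors Hilpda and G0s2, the lipases Pnpla2 and Lipe, the diglyceride acyltransferases Dgat1 and Dgat2, the phosphatidate phosphatase Lpin1 and the secreted lipase inhibitor Angptl4. E0771 is a mammary carcinoma line of C57BL/6 mice, and the cells used here carried the red fluorescent protein mCherry. Per animal, 50000 cells were placed in the mammary fat pad of a c57bl6 mouse, and mCherry-positive cells were sorted by flow cytometry from the dissociated tumor. The 4 groups were obese mice (labelled HFD) at the endpoint on day 21 (5 tumors), lean mice (labelled Chow) at the endpoint (4 tumors analysed), obese mice at the midpoint on day 14 (5 tumors) and lean mice at the midpoint (4 tumors). All groups shared the cell line, the implantation site and the host strain. The age and sex of the hosts are not stated in the labels, and each library is a tumor. All tumors grew from 1 line, so the replicates are hosts rather than independent carcinomas.

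Lipid droplets are stores of triglyceride and cholesteryl ester wrapped in a phospholipid monolayer and a coat of perilipin proteins. Cells fill them through acyltransferases of the endoplasmic reticulum and drain them through a cascade that starts with the triglyceride lipase encoded by Pnpla2. Small inhibitor proteins hold that lipase in check, several of the genes are classical targets of fatty acid-sensing nuclear receptors or of hypoxia-inducible factors, and tumor cells in fatty tissue are known to take up and store fatty acids released by their neighbours.

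Each of the 18 libraries analysed held between 44174080 and 56996252 counts. Mitochondrial-genome transcripts took 5.80% to 44.7% of them, highest in lean endpoint replicate 1, and the 7SK RNA was the most abundant gene in obese midpoint replicates 2, 3 and 5. The libraries also differed in how counts ran with GC content. Each log2 level was taken relative to the gene's mean over the 18 libraries, and its slope on GC content is given per 10 percentage points. This relative slope ran between 0.326 and 1.52 in the obese midpoint libraries and between 0.106 and 0.443 in the lean midpoint libraries. It ran from -0.874 to -0.419 in obese and from -0.874 to -0.064 in lean endpoint libraries. Obese midpoint replicates 2 and 3 had the steepest slopes (1.52 and 1.21), and values after a correction for GC content and transcript length stand beside the results. Of the epithelial markers of carcinoma, Krt8 held 700 to 2799 counts per library, while Krt18, Krt19 and Krt7 stayed at 0 to 4, Cdh1 at 0 to 14 and Epcam at 0 to 16. Macrophage markers were present in every library, for example C1qa at 439 to 3971 counts. Of the 8 adipocyte markers, Adipoq, Lep, Cidec and Retn stayed at 0 to 4 counts. Aqp7 held 0 to 27, Cfd 0 to 32, Plin1 0 to 97 and Fabp4 94 to 3932 counts. In such bulk libraries fewer cells of a type and less RNA per cell cannot be told apart.

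The promoters of 3 members are printed to show the core letters of hypoxia response elements where they occur, in Plin2 and Hilpda, beside a window that lacks them, that of Plin3. The RefSeq table (build GRCm38.p6) held windows for 7 of the 10 genes, each running from 250 bases before to 50 bases after a start. Capitals mark ACGTG or GCGTG on either strand, the core letters of hypoxia response elements, so that CACGT and CACGC are the same letters read on the opposite strand. The Plin2 window lies at chr4:86670010-86670309 on the minus strand, the second of the 2 Hilpda windows at chr6:29272376-29272675 on the plus strand and the Plin3 window at chr17:56290462-56290761 on the minus strand.
Plin2: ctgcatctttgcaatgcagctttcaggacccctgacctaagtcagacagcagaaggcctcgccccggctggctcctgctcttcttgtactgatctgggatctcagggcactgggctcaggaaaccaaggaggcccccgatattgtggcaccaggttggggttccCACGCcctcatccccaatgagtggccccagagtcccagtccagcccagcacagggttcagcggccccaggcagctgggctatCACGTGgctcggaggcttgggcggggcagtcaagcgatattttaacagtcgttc
Hilpda: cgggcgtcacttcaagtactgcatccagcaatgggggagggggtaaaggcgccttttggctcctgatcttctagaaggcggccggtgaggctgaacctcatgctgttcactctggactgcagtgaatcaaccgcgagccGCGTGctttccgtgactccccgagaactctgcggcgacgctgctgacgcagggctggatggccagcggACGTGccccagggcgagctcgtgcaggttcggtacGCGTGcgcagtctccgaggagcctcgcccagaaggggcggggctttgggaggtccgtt
Plin3: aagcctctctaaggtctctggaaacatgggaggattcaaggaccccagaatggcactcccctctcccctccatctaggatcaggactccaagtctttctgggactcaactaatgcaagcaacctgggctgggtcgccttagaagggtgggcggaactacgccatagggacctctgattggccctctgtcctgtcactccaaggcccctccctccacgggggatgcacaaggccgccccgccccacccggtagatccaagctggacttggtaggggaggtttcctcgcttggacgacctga

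The Plin2 window held 2 ACGTG matches, which overlap in a single palindromic CACGTG, and 1 GCGTG match. The printed Hilpda window held 1 ACGTG and 2 GCGTG matches, the other Hilpda window held 1 GCGTG match, and the Plin3 window held none. Among the other members with a window, G0s2 held 1 GCGTG match, and Pnpla2 and Lpin1 held none. An upstream window of Lipe held 2 ACGTG matches and 1 GCGTG match, and the other Lipe window held none. The Lpin1 window, at chr12:16610917-16611216 on the minus strand, lies outside the counted exons, which end at 16589770. Of 32851 promoter windows of the same length, 19.6% held ACGTG, 32.4% held GCGTG and 43.8% held at least 1 of both, while 7.15% held CACGTG.

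Per transcript length, the coat genes and the 2 inhibitors Angptl4 and Hilpda were the most abundant members, and the lipases and acyltransferases followed well below. Levels are given as CPM, a gene's counts relative to its library's total after scaling between libraries by the trimmed mean of M-values (TMM), or as FPKM, the same level divided by exon length. On the FPKM scale obese endpoint tumors averaged 61.1 ± 9.66 for Plin2, 44.7 ± 9.98 for Hilpda, 34.1 ± 2.79 for Plin3 and 30.1 ± 4.67 for Angptl4 (SD, n = 5). In the same tumors Pnpla2 averaged 9.35 ± 0.807, Dgat1 5.22 ± 0.709, Lpin1 2.65 ± 0.243 and Lipe 0.949 ± 0.112 FPKM. Dgat2 and G0s2 were near the detection limit everywhere, with 0 to 20 and 0 to 17 counts per library. In lean midpoint tumors the order was Plin2 at 78.1 ± 5.31, Plin3 at 57.1 ± 9.06, Angptl4 at 31.8 ± 4.24 and Hilpda at 26.3 ± 5.13 FPKM (SD, n = 4), with the last 2 within their spread of each other. Hilpda stood above Plin3 in obese endpoint tumors by less than the sum of their SDs, while in the other 3 groups its mean was the lower of that pair.

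**Figure D1:**
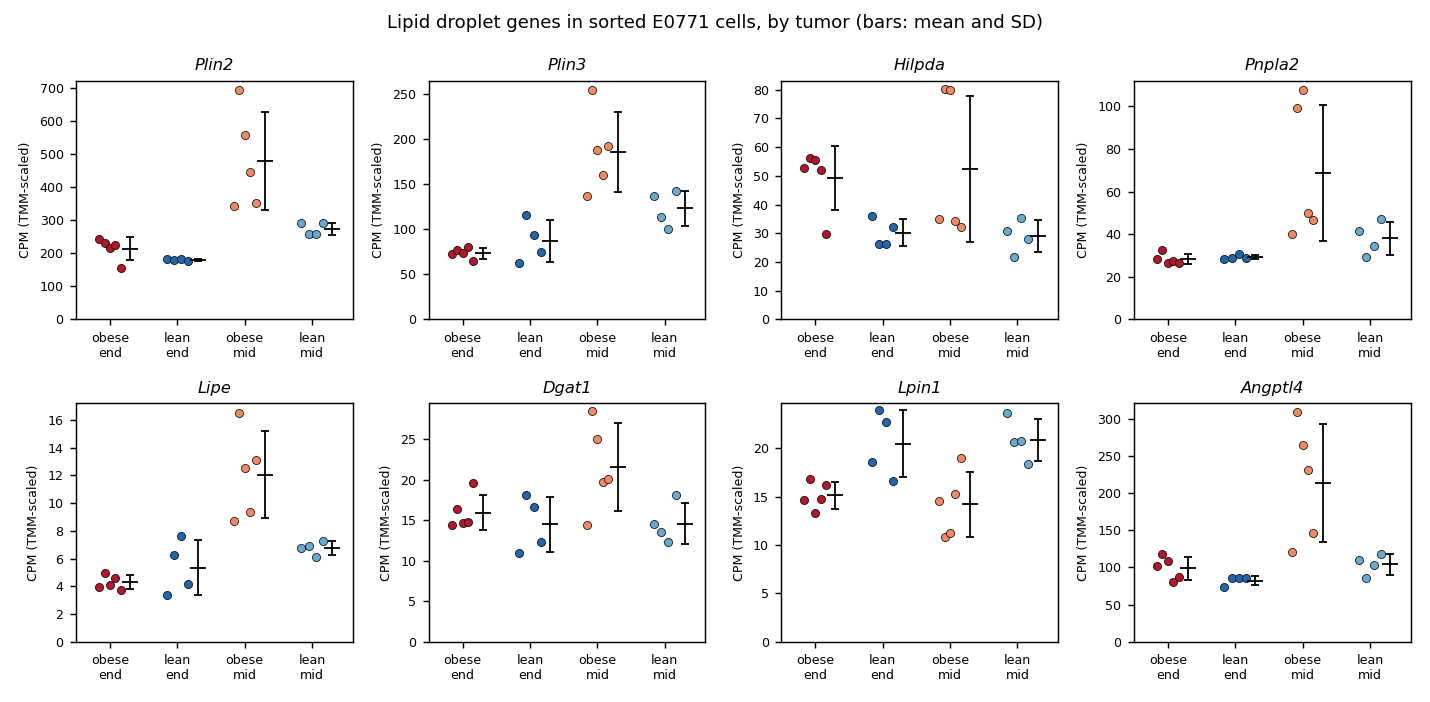
Level of 8 members in each tumor, in TMM-scaled CPM (linear axis), for obese and lean hosts at the endpoint and obese and lean hosts at the midpoint. Points are tumors and bars give the mean and SD. The 5 obese midpoint tumors span 342 to 694 CPM for Plin2, above every other group.

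Plin2 encodes the perilipin that coats droplets in most cell types, and it was the highest member in CPM in every library. It had 342, 694, 559, 447 and 352 CPM in obese midpoint replicates 1 to 5, against 290, 259, 258 and 290 CPM in lean midpoint replicates 1 to 4. At the endpoint it had 244, 231, 215, 225 and 157 CPM in obese replicates 1 to 5, against 182, 180, 181 and 175 CPM in lean replicates 1, 2, 3 and 5. The 2 midpoint groups did not overlap, and both endpoint groups lay below both midpoint groups. Within the endpoint, 4 of the 5 obese tumors lay above the lean ones and replicate 5 lay below them.

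Plin3 encodes a coat protein that moves from the cytosol onto newly formed droplets. It had 137, 255, 187, 160 and 192 CPM in obese midpoint tumors, against 136, 114, 101 and 143 CPM in lean midpoint tumors. The endpoint values were 72.1, 77.1, 73.3, 80.7 and 64.6 CPM in obese and 62.4, 115, 93.6 and 75.3 CPM in lean tumors. The obese tumors were tightly grouped at the endpoint (SD 6.02 CPM), and the lean ones spread around them (SD 23.1 CPM).

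Hilpda, a hypoxia-inducible droplet protein, and G0s2 both encode inhibitors of the Pnpla2 lipase. Hilpda had 35.0, 80.1, 79.9, 34.2 and 32.1 CPM in obese midpoint tumors, against 30.8, 21.9, 35.4 and 27.8 CPM in lean midpoint tumors. Obese replicates 2 and 3 stood far above the other 3, which lay at the level of the lean group. At the endpoint Hilpda had 52.6, 56.3, 55.6, 51.9 and 29.8 CPM in obese tumors, against 35.9, 26.3, 26.2 and 32.1 CPM in lean tumors. Here 4 obese tumors were alike and above all lean ones, and replicate 5 fell within the lean range. G0s2 held 14, 2, 10, 10 and 4 counts in obese endpoint libraries and 4, 0, 0 and 0 in lean ones, and 0, 12, 17, 4 and 0 in obese midpoint libraries against 4, 4, 10 and 0 in lean ones.

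Pnpla2 encodes adipose triglyceride lipase, which releases the first fatty acid, and Lipe encodes hormone-sensitive lipase, which acts on the diglyceride. Pnpla2 had 40.2, 99.1, 108, 49.8 and 46.5 CPM in obese midpoint tumors, against 41.3, 29.5, 34.6 and 47.2 CPM in lean midpoint tumors. As for Hilpda, obese replicates 2 and 3 stood well above the other 3, which overlapped the lean group. The endpoint values were close to uniform, at 28.3, 32.4, 26.5, 27.5 and 26.5 CPM in obese and 28.4, 28.8, 30.7 and 28.9 CPM in lean tumors. Lipe had 8.74, 16.5, 12.5, 9.39 and 13.1 CPM in obese midpoint tumors, all above the 6.77, 6.94, 6.12 and 7.27 CPM of lean midpoint tumors. At the endpoint Lipe had 3.95, 4.98, 4.10, 4.63 and 3.76 CPM in obese tumors, inside the range of 3.34, 6.29, 7.63 and 4.14 CPM in lean tumors.

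Dgat1 and Dgat2 encode unrelated enzymes that add the last fatty acid of a triglyceride, and in these cells the reads came from Dgat1. Dgat1 had 14.4, 28.6, 25.1, 19.7 and 20.1 CPM in obese midpoint tumors, against 14.5, 13.5, 12.3 and 18.1 CPM in lean midpoint tumors. It had 14.4, 16.4, 14.6, 14.8 and 19.6 CPM in obese endpoint tumors, against 10.97, 18.1, 16.6 and 12.4 CPM in lean endpoint tumors. The groups overlapped at both time points. Per length, the summed Dgat1 level was 125 times that of Dgat2 in obese endpoint, 70.5 times in lean endpoint, 85.7 times in obese midpoint and 58.6 times in lean midpoint tumors, with 24, 29, 46 and 44 Dgat2 counts behind these ratios.

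Lpin1, whose product makes diglyceride from phosphatidate, was the only member with lower means in obese hosts at both time points. It had 14.6, 10.8, 11.3, 15.3 and 19.02 CPM in obese midpoint tumors, against 23.6, 20.7, 20.7 and 18.4 CPM in lean midpoint tumors. It had 14.7, 16.8, 13.3, 14.8 and 16.2 CPM in obese endpoint tumors, against 18.6, 24.0, 22.7 and 16.6 CPM in lean endpoint tumors. Both pairs of groups touched at their edges, through obese midpoint replicate 5 and obese endpoint replicate 2.

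Angptl4 encodes a secreted inhibitor of lipoprotein lipase and is a classical target of both PPARs and hypoxia-inducible factors. It had 121, 309, 265, 231 and 146 CPM in obese midpoint tumors, all above the 110, 85.5, 104 and 118 CPM of lean midpoint tumors. It had 102, 118, 108, 80.0 and 87.0 CPM in obese endpoint tumors, against 73.4, 85.4, 85.4 and 85.3 CPM in lean endpoint tumors. The separation at the midpoint was narrow at its edge, where obese replicate 1 and lean replicate 4 differed by a few CPM, and the endpoint groups overlapped.

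Between obese and lean hosts at the midpoint, both coat genes, both lipases, Hilpda, Dgat1 and Angptl4 were higher in obese hosts and Lpin1 was lower. In edgeR's quasi-likelihood test, with p-values adjusted after Benjamini and Hochberg, 7 of the 10 members rose and 1 fell, where 16.7% of all genes tested rose and 12.8% fell. The median log2 fold change was 0.82 over the members and -0.00101 over all genes. Angptl4 rose by 1.04 ± 0.23 (log2, SE; adjusted p = 0.0304) and Plin2 by 0.80 ± 0.19 (adjusted p = 0.0304). Among the lipases, Pnpla2 rose by 0.85 ± 0.25 (adjusted p = 0.0307) and Lipe by 0.83 ± 0.23 (adjusted p = 0.0304). Hilpda rose by 0.85 ± 0.28 (adjusted p = 0.0359), Plin3 by 0.59 ± 0.20 (adjusted p = 0.0347) and Dgat1 by 0.56 ± 0.21 (adjusted p = 0.0471). Lpin1 fell by 0.56 on the log2 scale (SE 0.18, adjusted p = 0.0325), while G0s2 at 0.97 ± 1.06 and Dgat2 at 0.11 ± 0.82 did not pass. The groups were fully separate for Plin2, Lipe and Angptl4, all higher, where 4.9% of all genes were separate in that direction.

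The midpoint calls changed with the GC and length correction and with the libraries left out. After the GC and length correction 3 members still rose, namely Angptl4 (1.14, adjusted p = 0.028), Plin2 (0.76, adjusted p = 0.028) and Plin3 (0.58, adjusted p = 0.0419), where 8.26% of genes rose, and none fell, where 3.65% of genes did. Lpin1 was at -0.37 (adjusted p = 0.107), and the median over the members was 0.42 against 0.06 over all genes. No gene of the whole table was called when obese midpoint replicate 2 or 3 or lean midpoint replicate 2 or 3 was left out, although each of the 8 called members kept its sign in all 18 fits with a library left out, Plin2 between 0.60 and 0.91 and Angptl4 between 0.84 and 1.19. Leaving out lean midpoint replicate 1 also ended the calls of Plin3, Hilpda, Lipe, Dgat1 and Lpin1. Obese midpoint replicate 5 ended those of Plin3 and Dgat1, lean midpoint replicate 4 that of Hilpda, and Dgat1 was lost in 13 of 18 such fits. Macrophage markers moved with the comparison: their 12 genes summed to 179 to 351 CPM in obese midpoint and 239 to 562 CPM in lean midpoint tumors, all 12 fold changes were below 0, and 4 fell, or 1 after the correction. With the level of pan-leukocyte markers as a covariate no gene was called, and Plin2 stood at 0.75 (adjusted p = 0.254) and Angptl4 at 0.85 (adjusted p = 0.254).

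At the endpoint no difference between obese and lean hosts passed the test for any member. The edgeR test called 1 gene of 16352 (0.00612%) and no member, 800 genes had an unadjusted p under 0.05, and DESeq2 called 13 genes and no member. All 10 members overlapped between the groups, where 1.97% of all genes did not, and their median log2 fold change was 0.0433 against -0.00485 over all genes. Hilpda had the largest difference among the well-counted members, at 0.71 ± 0.28 (log2, SE; adjusted p = 0.989), followed by Lpin1 at -0.43 ± 0.18 (adjusted p = 0.989). Angptl4 at 0.26 ± 0.22, Plin2 at 0.26 ± 0.19 and Pnpla2 at -0.05 ± 0.25 had adjusted p-values of 0.999. G0s2 held 40 counts over 5 obese endpoint libraries and 4 counts over 4 lean ones (adjusted p = 0.989), a difference carried by single-digit to low double-digit counts.

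**Figure D2:**
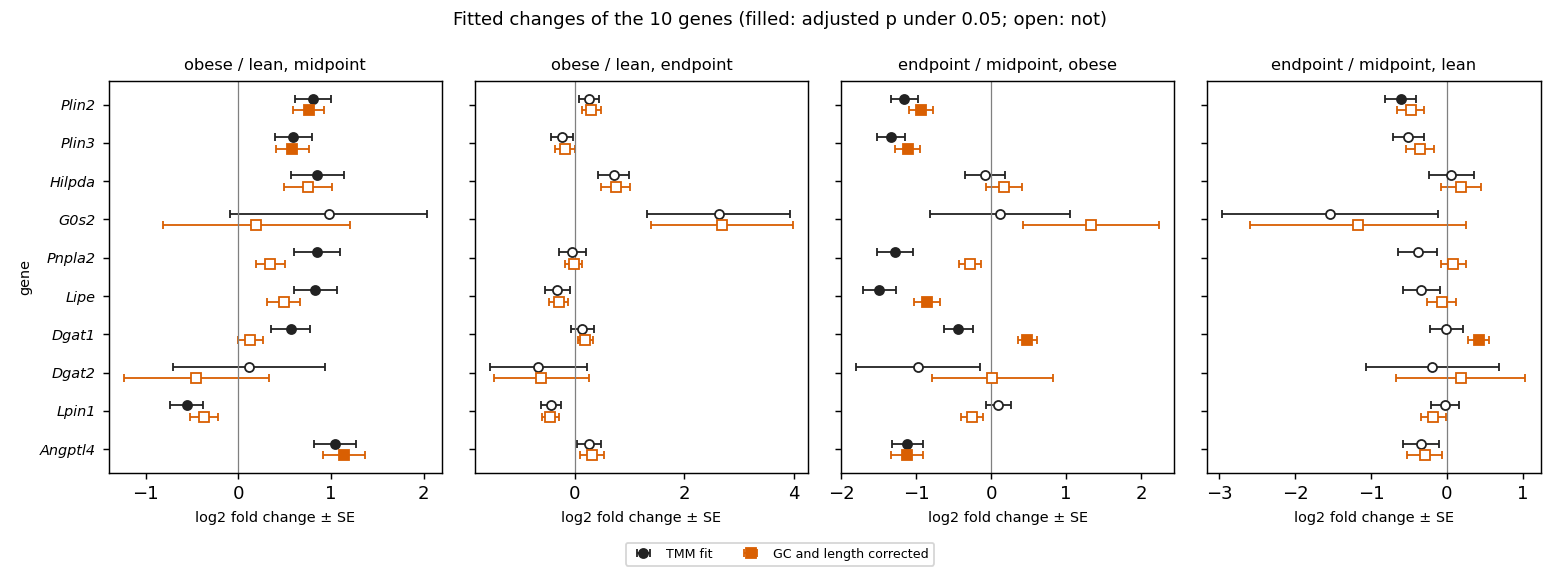
Fitted log2 fold change with its SE (horizontal axis) of the 10 genes (vertical axis) for obese over lean at each time point and endpoint over midpoint in each host. Circles are the TMM fit and squares the fit corrected for GC content and length, filled where the adjusted p is under 0.05. Plin2, Plin3, Lipe and Angptl4 are filled in both fits for the endpoint over the midpoint in obese hosts.

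In obese hosts the coat genes, both lipases and Angptl4 were lower at the endpoint than at the midpoint, while Hilpda, G0s2 and Lpin1 did not pass the test. The comparison called 36.1% of all genes as lower and 37.8% as higher, and 6 members fell and none rose. Lipe fell by 1.49 on the log2 scale (SE 0.22, adjusted p = 8.37e-06), Plin3 by 1.34 (SE 0.19, adjusted p = 4.31e-06) and Pnpla2 by 1.28 (SE 0.24, adjusted p = 7.9e-05). Plin2 fell by 1.16 (SE 0.18, adjusted p = 1.3e-05), Angptl4 by 1.12 (SE 0.21, adjusted p = 1e-04) and Dgat1 by 0.44 (SE 0.19, adjusted p = 0.0486). Plin2, Plin3, Pnpla2, Lipe and Angptl4 were fully separate between the time points, as were 28.9% of all genes in that direction. Hilpda stood at -0.08 ± 0.26 (adjusted p = 0.78) and Lpin1 at 0.09 ± 0.17 (adjusted p = 0.623).

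Leaving out any of the 18 libraries kept the calls of Plin2, Plin3, Pnpla2, Lipe and Angptl4. After the GC and length correction Plin3 fell by 1.11, Plin2 by 0.94, Lipe by 0.86 and Angptl4 by 1.12 on the log2 scale, where 32.1% of genes fell, and Pnpla2 stood at -0.28 (adjusted p = 0.108). Dgat1 turned round under that correction, to a rise of 0.48 (adjusted p = 0.00284), where 25.4% of genes rose, and it also lost its call in 13 of 18 fits with a library left out. Obese midpoint replicates 2 and 3 and lean endpoint replicate 1 were also left out together, a set chosen after seeing the data. The 2 obese midpoint libraries held the highest Hilpda values of their group (80.1 and 79.9 CPM), so leaving them out raised the change by itself. In that fit Hilpda stood at 0.54 (adjusted p = 0.0228), where 5753 of 16587 genes rose, and the fit is no independent test of a rise. With single libraries left out Hilpda stood between -0.22 and 0.13.

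In lean hosts the same contrast of time changed 1 member. Plin2 fell by 0.61 on the log2 scale at the endpoint (SE 0.20, adjusted p = 0.0263), where 9.5% of all genes fell and 21.4% rose. Leaving out lean endpoint replicate 3 or 5 ended this call, and after the GC and length correction Plin2 stood at -0.48 (adjusted p = 0.0544). Plin3 at -0.51 ± 0.20 (adjusted p = 0.0628), Pnpla2 at -0.39 ± 0.26, Angptl4 at -0.34 ± 0.23 and Lipe at -0.34 ± 0.24 did not pass. Plin2 and Angptl4 were fully separate between the time points, as were 13.2% of all genes in the lower direction, but for Angptl4 the edge was 85.4 CPM in lean endpoint replicate 3 against 85.5 CPM in lean midpoint replicate 2. Hilpda, at 0.06 ± 0.30, and Dgat1, at -0.01 ± 0.22, did not pass, although Dgat1 rose by 0.42 once corrected for GC and length (adjusted p = 0.0349), as did 12.4% of all genes.

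Whether the change over time differed between hosts was tested by the interaction of diet and time. The edgeR test called no gene, with 5451 genes at an unadjusted p under 0.05, and DESeq2 called 1681 genes, of which 643 had a negative interaction (3.93% of genes). The interaction was -1.15 ± 0.33 for Lipe and -0.83 ± 0.27 for Plin3 (adjusted p = 0.0983 for each), -0.90 ± 0.35 for Pnpla2, -0.77 ± 0.31 for Angptl4 and -0.55 ± 0.27 for Plin2. DESeq2 called Lipe alone among the members, at -1.07 (adjusted p = 0.0348). Without obese midpoint replicate 1, edgeR called 5656 genes and a negative interaction for 4 members, Angptl4, Lipe, Plin3 and Pnpla2, where 16.4% of genes had one. In the edgeR fit of all 18 libraries, the difference between hosts in the course over time passed for no member.

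Relative to its target Pnpla2, the lipolysis inhibitor Hilpda was higher in 4 of the 5 obese endpoint tumors than in any lean endpoint tumor, in ratios taken within each library and so free of the scaling between libraries. Per length, Hilpda relative to its target Pnpla2 was 5.08, 4.76, 5.75, 5.17 and 3.08 in obese endpoint tumors, against 3.46, 2.51, 2.33 and 3.05 in lean endpoint tumors. At the midpoint it was 2.39, 2.21, 2.03, 1.88 and 1.89 in obese and 2.05, 2.03, 2.80 and 1.61 in lean tumors. The ratio averaged 4.77 ± 1.01 in obese (SD, n = 5) and 2.84 ± 0.515 in lean endpoint tumors (SD, n = 4), and the groups overlapped, since obese replicate 5 lay below lean replicate 1. Without the GC and length correction, all 5 obese endpoint tumors lay above the highest obese midpoint tumor. The midpoint means of 2.08 ± 0.217 in obese and 2.12 ± 0.493 in lean tumors lay within their spread. Plin2 relative to Plin3 averaged 1.79 ± 0.214 in obese and 1.34 ± 0.356 in lean endpoint tumors, and 1.58 ± 0.274 in obese and 1.38 ± 0.141 in lean midpoint tumors, with overlap in each pair. Lipe relative to Pnpla2 averaged 0.101 ± 0.00775, 0.122 ± 0.0411, 0.13 ± 0.0411 and 0.122 ± 0.0244 in obese endpoint, lean endpoint, obese midpoint and lean midpoint tumors, with overlap between the groups. The ratios were not tested and still carry the GC slope of each library, since the exons of Hilpda hold 51.1% GC and those of Pnpla2 more. After the GC and length correction, the log2 change over time in obese hosts was 0.17 for Hilpda and -0.28 for Pnpla2. Without it these were -0.08 and -1.28, so that the difference between both genes was smaller with the correction. Obese endpoint and obese midpoint tumors also overlapped in this ratio once corrected, through obese endpoint replicate 5 alone. The other 4 obese endpoint tumors stayed above all obese midpoint and all lean endpoint tumors. Obese endpoint replicate 5 was almost level with lean endpoint replicate 5, at corrected log2 levels of 5.065 and 5.156 against 5.107 and 5.203 for Hilpda and Pnpla2. Corrected log2 levels of Hilpda and Pnpla2 were 5.06 and 5.16 in obese endpoint replicate 5, against 6.14 and 5.68 in obese midpoint replicate 2.

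**Figure D3:**
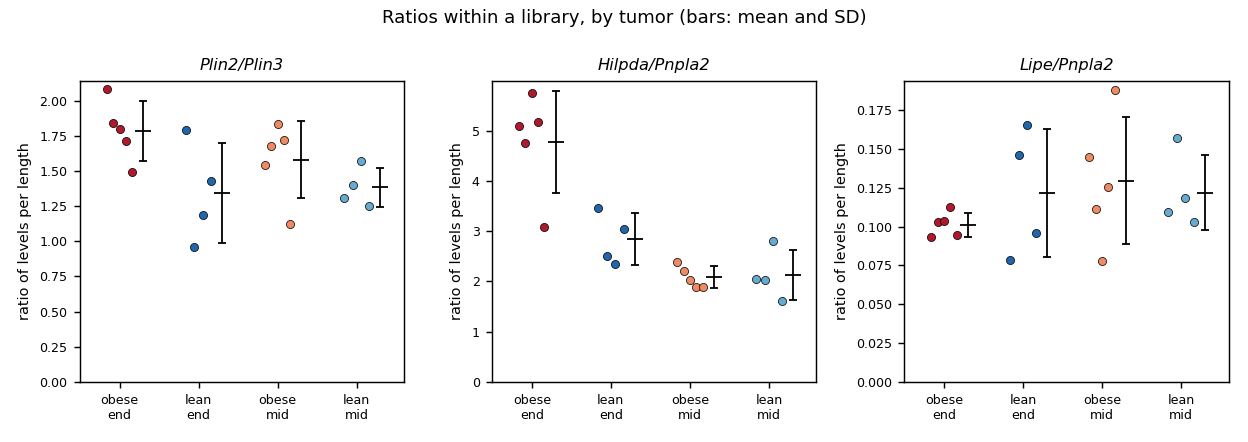
Ratio of levels per length within each tumor (linear axis from 0) for Plin2 over Plin3, Hilpda over Pnpla2 and Lipe over Pnpla2, in obese and lean hosts at the endpoint and at the midpoint. Points are tumors and bars give the mean and SD. The obese endpoint tumors span 3.08 to 5.75 for Hilpda over Pnpla2, above the obese midpoint span of 1.88 to 2.39. The ratios are not corrected for GC content, and these 2 groups overlapped through obese endpoint replicate 5 once corrected.

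Across the 18 libraries some members rose and fell closely with another member and others did not. Partners were picked by the highest signed correlation, so inverse relations were not ranked. By Pearson correlation of log2 CPM, Plin3 and Lipe were most like each other (r = 0.97), as were Plin2 and Angptl4 (r = 0.94), and Pnpla2 was most like Plin2 (r = 0.92). The correlation within groups, after each group's mean was taken off, was 0.87 for Plin3 and Lipe and 0.82 for both Plin2 and Angptl4 and Pnpla2 and Plin2. Dgat1 was most like Angptl4 (r = 0.79), and Hilpda was most like G0s2 (r = 0.73), a gene with few counts. Lpin1 had no close partner in the positive direction, its highest value being 0.08 with Dgat2. It was lowest in obese midpoint replicates 2 and 3 (10.8 and 11.3 CPM), where Hilpda was highest (80.1 and 79.9 CPM). Whether Lpin1 runs inversely to other members was not tested. These points share the library depth and the GC slope of each library. How often genes outside the set correlate as closely was not tested.

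Of 12 further coat and budding genes that passed the filter, 3 rose and 1 fell in obese hosts at the midpoint (16.7% and 12.8% of all genes). After the GC and length correction 3 rose and none fell (8.26% and 3.65% of all genes). Only Plin1 rose in both fits. Plin5 and Aup1 rose without the correction alone, and Hsd17b11 and Tmem159 with it alone. Plin5, Hsd17b11 and Tmem159 are named after their values were seen. Without the correction the list's median was 0.40 against -0.00101 over all genes. Plin1, the perilipin of fat cells, held 48, 97, 37, 84 and 81 counts in obese midpoint libraries, against 1, 7, 5 and 10 in lean midpoint libraries. It rose by 3.81 ± 0.84 (log2, SE; adjusted p = 0.0304), and by 3.30 once corrected for GC and length (adjusted p = 0.028). At the endpoint it held 1, 21, 0, 0 and 5 counts in obese libraries and 0 counts in all 4 lean ones. Its level was low even where it was highest, averaging 1.38 ± 0.587 CPM in obese midpoint tumors (SD, n = 5), and the fat-cell transcripts Adipoq, Lep, Cidec and Retn did not accompany it. Fabp4, which fat cells and macrophages share, stood at -0.84 ± 0.35 in the same contrast (adjusted p = 0.0711). The adipocyte marker Aqp7 stood at 1.00 ± 0.84 (adjusted p = 0.356), and Cfd was not tested. The summed level of the 8 adipocyte markers was 4.11 to 8.35 CPM in obese and 5.55 to 9.88 CPM in lean midpoint tumors.

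Among the other coat genes, Aup1, whose product sits on droplets and in protein degradation, averaged 171 ± 55.4 CPM in obese and 105 ± 14.4 CPM in lean midpoint tumors (0.70 ± 0.20, adjusted p = 0.0304). It stood at 0.05 once corrected for GC and length (adjusted p = 0.776). Rab18, a droplet-bound GTPase, ran the other way, with 9.95 ± 5.85 CPM in obese and 22.5 ± 9.86 CPM in lean midpoint tumors (-1.18 ± 0.42, adjusted p = 0.0451), and -0.61 after correction (adjusted p = 0.145). Fitm2, needed for droplets to bud, fell by 0.63 at the endpoint in obese hosts (adjusted p = 0.000308) and by 0.72 after correction (adjusted p = 1.68e-05). In that contrast of time 1 gene of this list rose and 4 fell (37.8% and 36.1% of all genes), or none and 5 after correction (25.4% and 32.1%), with a median of -0.25 against -0.00148 over all genes.

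Of 14 further genes of triglyceride and sterol ester synthesis, 2 rose and 2 fell in obese hosts at the midpoint, where 16.7% of all genes rose and 12.8% fell, and 1 rose and 1 fell after the GC and length correction, where 8.26% and 3.65% did. At the endpoint relative to the midpoint in obese hosts 5 rose and 8 fell, where 37.8% and 36.1% of all genes did, and 1 rose and 6 fell after correction, where 25.4% and 32.1% did. Lpin2, a paralog of Lpin1, averaged 120 ± 10.7 CPM in obese and 124 ± 38.5 CPM in lean endpoint tumors, and 32.3 ± 8.43 CPM in obese and 56.4 ± 15.5 CPM in lean midpoint tumors. It rose by 1.90 ± 0.22 at the endpoint in obese hosts (adjusted p = 6.84e-07) and by 1.09 after the GC and length correction, and it fell by 0.81 in obese relative to lean hosts at the midpoint (adjusted p = 0.0304). Agpat2, Agpat3 and Agpat4, which make phosphatidate, were lower at the endpoint in obese hosts: they fell by 1.44, 1.12 and 1.12 on the log2 scale, and by 0.31, 0.89 and 0.44 after correction. The other tested members of the family, named after their values were seen, were Agpat1, which fell by 1.22 and stood at -0.17 after correction (adjusted p = 0.181), and Agpat5, which rose by 0.82 and fell by 1.26 after correction (adjusted p = 5e-05). At the midpoint Agpat2 rose by 0.81 in obese hosts (adjusted p = 0.0304) and stood at 0.23 after correction (adjusted p = 0.169). Agpat3 at 0.44 and Agpat4 at 0.36 did not pass. In the same contrast Agpat1 rose by 0.71 (adjusted p = 0.0313) and Agpat5 fell by 0.65 (adjusted p = 0.0429). After correction Agpat1 stood at 0.15 (adjusted p = 0.382) and Agpat5 at -0.02 (adjusted p = 0.952).

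**Figure D4:**
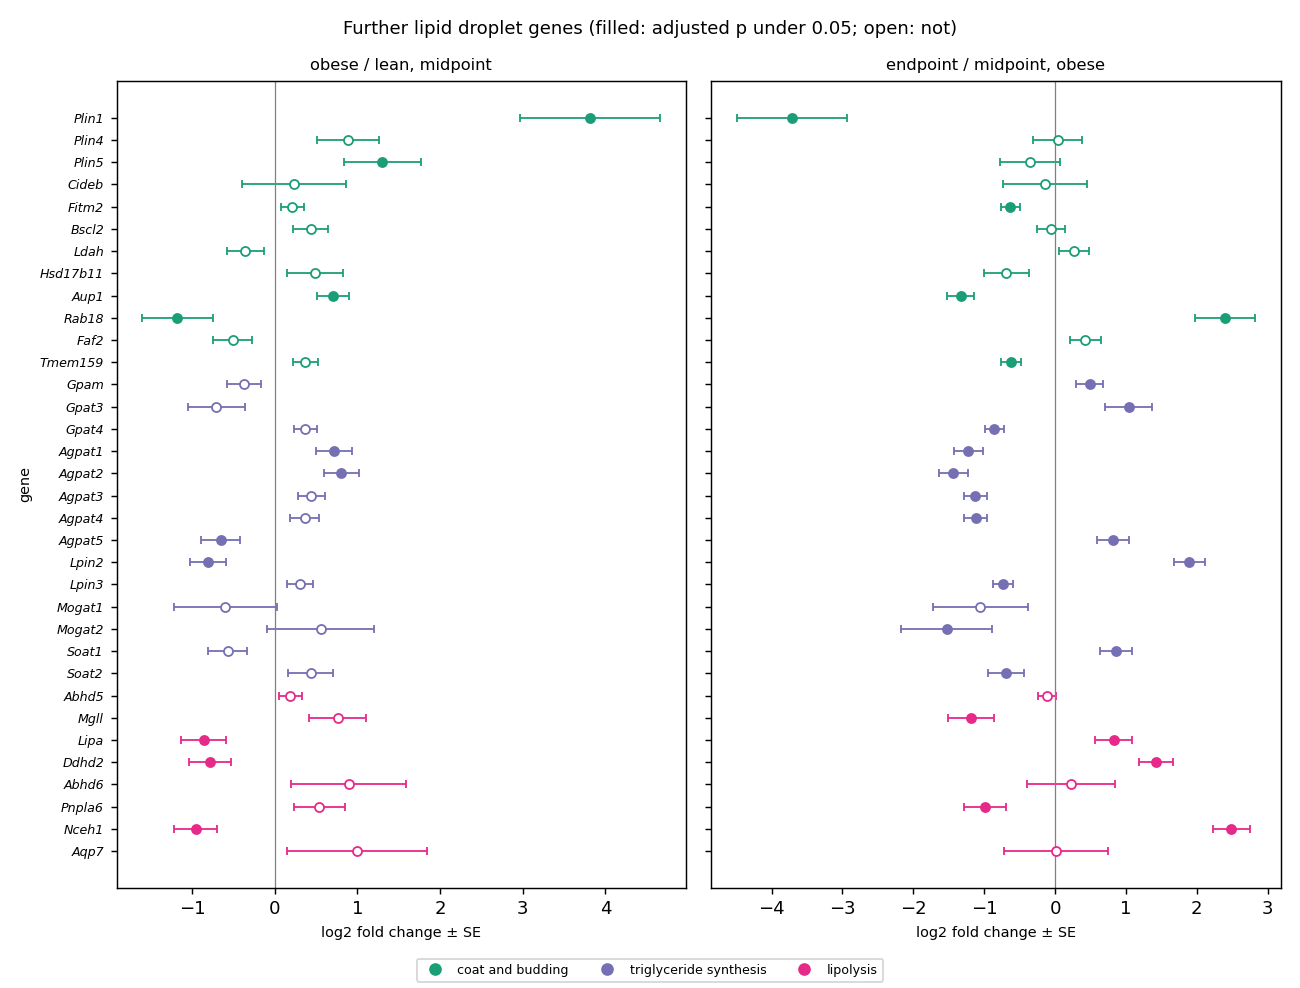
Fitted log2 fold change with its SE (horizontal axis) of further coat and budding, triglyceride synthesis and lipolysis genes (vertical axis), for obese over lean hosts at the midpoint and for endpoint over midpoint in obese hosts. Filled points have an adjusted p under 0.05. Plin1 lies at 3.81 in the first panel and -3.71 in the second.

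Of 8 further lipolysis genes, none rose and 3 fell in obese hosts at the midpoint, where 16.7% of all genes rose and 12.8% fell. After the GC and length correction the count turned round, to 1 that rose and none that fell, where 8.26% and 3.65% of genes did. The gene that rose was Abhd5, the co-activator of the Pnpla2 lipase, at 0.81 (adjusted p = 0.028) against 0.19 without the correction (adjusted p = 0.276), and it is named after its values were seen. At the endpoint in obese hosts 3 of the list rose and 2 fell, where 37.8% and 36.1% of all genes did, and 2 rose and 3 fell after correction, where 25.4% and 32.1% did. Nceh1, a cholesteryl ester hydrolase, averaged 149 ± 14.0 CPM in obese and 128 ± 33.9 CPM in lean endpoint tumors, and 26.6 ± 12.2 CPM in obese and 51.7 ± 9.61 CPM in lean midpoint tumors. It rose by 2.48 ± 0.26 at the endpoint in obese hosts (adjusted p = 4.33e-07) and by 0.99 after correction (adjusted p = 2.04e-06). Ddhd2, a phospholipase that also cleaves triglyceride, rose by 1.42 (adjusted p = 3.5e-05), and by 0.51 after correction. Mgll, which cleaves the monoglyceride left by Pnpla2 and Lipe, was barely expressed, at 1.00 ± 0.236 CPM in obese and 0.591 ± 0.173 CPM in lean midpoint tumors. Pnpla6, a lysophospholipase related to Pnpla2, fell by 0.99 at the endpoint in obese hosts (adjusted p = 0.00502).

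Angptl4 acts outside the cell on lipoprotein lipase, whose own gene Lpl was scarce. Lpl averaged 3.98 ± 4.72 CPM in obese and 1.53 ± 0.882 CPM in lean endpoint tumors, and 0.307 ± 0.219 CPM in obese and 0.961 ± 0.365 CPM in lean midpoint tumors. The obese endpoint mean was carried by 1 tumor at 12.35 CPM, with 549 of the group's 945 counts, and the median was 1.88 CPM. Lpl rose by 3.67 ± 0.65 at the endpoint in obese hosts (adjusted p = 4.7e-05) and by 1.79 after correction (adjusted p = 0.0108). The lipase maturation factors Lmf1 and Lmf2 rose by 0.65 and 0.89 in obese hosts at the midpoint (adjusted p = 0.0313 and 0.0304). After correction Lmf1 rose by 1.01 (adjusted p = 0.0319) and Lmf2 stood at 0.35 (adjusted p = 0.0655). At the endpoint in obese hosts Lmf1 fell by 1.27 and Lmf2 fell by 1.504 on the log2 scale, and after correction Lmf1 fell by 2.27 and Lmf2 fell by 0.45. Sel1l, a partner in lipase folding, rose by 0.64 over that time in the TMM fit and fell by 0.38 after correction (adjusted p = 0.0138). Of the 7 genes of this system that were tested, 2 rose and 1 fell at the midpoint in obese hosts (16.7% and 12.8% of all genes). After correction 1 rose and 1 fell (8.26% and 3.65%). The gene that fell was Lipg, named after its values were seen, at -1.37 (adjusted p = 0.0306) and -1.25 after correction (adjusted p = 0.0399). Unlike Lpl, this lipase gene was well counted, with a mean of 89.8 CPM over the libraries.

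Since Hilpda and Angptl4 answer to hypoxia and Plin2 and Angptl4 to PPARs, other targets of both were read beside them. Of 18 hypoxia targets, 1 rose and 3 fell in obese hosts at the midpoint (16.7% and 12.8% of all genes), with a median of -0.06, and none rose or fell after correction (8.26% and 3.65%). At the endpoint in obese hosts 6 rose and 3 fell (37.8% and 36.1% of all genes), with a median of 0.10, and 4 rose and 2 fell after correction (25.4% and 32.1%). Vegfa rose by 1.54 ± 0.22 at the endpoint in obese hosts (adjusted p = 6.36e-06; 1.45 after correction), and Kdm3a by 2.10 ± 0.25 (adjusted p = 9.01e-07; 0.85 after correction). P4ha1 fell by 0.84 in obese hosts at the midpoint (adjusted p = 0.0304) and stood at -0.32 after correction. Selenbp1 rose by 0.90 at the midpoint (adjusted p = 0.0433) and stood at 0.51 after correction (adjusted p = 0.155).

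Of 16 PPAR pathway genes, 5 rose and 2 fell in obese hosts at the midpoint with a median of 0.00155, where 16.7% of all genes rose and 12.8% fell, and 5 rose and none fell after the GC and length correction, where 8.26% and 3.65% did. Among them, Acaa2, a thiolase of fatty acid oxidation, averaged 50.1 ± 12.3 CPM in obese and 23.9 ± 2.76 CPM in lean midpoint tumors (1.07 ± 0.20, adjusted p = 0.0304). Slc25a20, the mitochondrial carnitine carrier, rose by 0.67 (adjusted p = 0.0304) and Ech1, an isomerase of the same pathway, by 0.77 (adjusted p = 0.0304). At the endpoint in obese hosts Acaa2 fell by 1.74 on the log2 scale, Slc25a20 by 1.06 and Ech1 by 1.36, and by 1.18, 1.44 and 0.58 after correction. Cd36, a fatty acid transporter, averaged 0.472 ± 0.140 CPM in obese and 1.40 ± 0.189 CPM in lean midpoint tumors (-1.56 ± 0.50, adjusted p = 0.0322; -0.86 after correction, adjusted p = 0.143), and 5.15 ± 4.09 CPM in obese and 5.22 ± 3.15 CPM in lean endpoint tumors. Cd36 is also a macrophage gene, and its part in the macrophage marker difference given above was not tested.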

How the data were processed

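RNA of sorted cells from 19 tumors was sequenced, and the authors deposited a single table of raw counts per gene for all libraries. TopHat, DESeq and the build mm10 stand in the submitters' processing notes, and neither their settings nor the counting tool is given there. The deposited values were whole numbers in every column, so none was treated as an estimated count. Lean endpoint replicate 4, with 11889188 counts that stop on chromosome 5, was left out. Gene IDs were matched to symbols by the GENCODE annotation of mm10 (37607 of 39017).

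Counts were filtered with filterByExpr, which left 16352 genes and all 10 members, TMM-scaled and tested with edgeR 4.0.16 in R 4.3.3 (quasi-likelihood, 4 groups in 1 fit of 18 libraries, adjusted p threshold 0.05). The fit was also run on simulated data, and the outcome of that run is not given here. Levels are TMM-scaled CPM, or FPKM over merged exons. With GC correction, offsets came from a spline with 5 degrees of freedom on GC content and length (16122 genes). Alternatives were RLE scaling, no filter, DESeq2 1.42.0, GC and length correction, only the compared groups, a replicate block, no mitochondrial and structural RNA genes, a pan-leukocyte covariate, each library left out and, chosen after seeing the data, obese midpoint replicates 2 and 3 and lean endpoint replicate 1 left out together. All members are named, and up to 4 genes of each further list with the smallest p. The members and lists were chosen with earlier results of these data known. P-values measure the spread between tumors of 1 cell line. Replicate numbers did not pair the samples: of 24 same-numbered pairs 6 correlated above 0.1, over a range of -0.403 to 0.551.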

Additional observations from a re-analysis of the deposited data

Results flagged for a closer look

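In 3 of 40 combinations of a member and a group, 1 tumor lay far from the others by Dixon's test at 95%, which by chance flags about 1 in 20 groups. Hilpda in obese endpoint replicate 5 was at 29.8 CPM, where the next lowest obese endpoint tumor had 51.9 and the highest 56.3 CPM. The same tumor was the lowest of its group for Plin2, Plin3, Lipe and the Hilpda to Pnpla2 ratio, and the highest for Dgat1 (19.6 CPM). Angptl4 in lean endpoint replicate 1 was at 73.4 CPM, where the other 3 tumors had 85.3 to 85.4 CPM. G0s2 in the same replicate was at 0.126 CPM from 4 counts, where the others had 0 counts, so that any count would have been flagged. That library had the highest share of mitochondrial-genome counts (44.7%), and whether this bears on either value was not tested.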

How the results depend on the processing

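For obese against lean hosts at the midpoint, 4825 genes were called in the TMM fit, 1921 after the GC and length correction, and 0 with only the compared groups, with the pan-leukocyte covariate and with 3 libraries left out together. The members called higher numbered 7, against 4 without a filter, 3 with the correction and 0 in the last 3 fits. The members called lower numbered 1, against 0 with the correction and in the last 3 fits. Of all genes, 2726 of 16352 were higher in the TMM fit, 1084 of 26248 without a filter and 1332 of 16122 with the correction. In the TMM fit 2099 were lower. With libraries left out in turn, 0 to 7946 genes, 0 to 7 higher members and 0 to 1 lower members were called. At the endpoint 13 genes were called by DESeq2 and 0 with only the compared groups, with the replicate block or with the 3 libraries out, and 0 to 1 with a library left out. Over time in obese hosts, 1 member rose with the correction (Dgat1), where 4091 of 16122 genes rose. With the 3 libraries out 1 member rose (Hilpda), where 5753 of 16587 genes rose. Over time in lean hosts, 1 member rose with the correction, where 1995 of 16122 genes rose. The members lower were 2 by DESeq2, where 2410 of 16352 genes were lower, and 2 with the 3 libraries out, where 2731 of 16587 were. With the correction or the replicate block 0 members were lower. With a library left out, 3251 to 6388 genes and 0 to 2 lower members were called. For the interaction, DESeq2 called 1681 genes and 1 member, and leaving libraries out gave 0 to 5656 genes and 0 to 4 members.

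The log2 fold changes whose sign turned were these. At the midpoint Dgat2 was -0.45 with the correction and -0.46 with 3 libraries out (-0.55 to 0.50 with a library out), and at the endpoint Pnpla2 was 0.011 without mitochondrial and structural RNA genes. Over time in obese hosts Hilpda was 0.0012 without a filter, 0.17 with the correction, 0.040 without mitochondrial and structural RNA genes and 0.54 with 3 libraries out (adjusted p = 0.0228; -0.22 to 0.13 with a library out), G0s2 -0.033 with the covariate (-0.23 to 0.38), Dgat1 0.48 and Dgat2 0.016 with the correction, and Lpin1 -0.26 with the correction and -0.10 with 3 libraries out. Over time in lean hosts Hilpda was -0.0010 without a filter and -0.059 with 3 libraries out (-0.10 to 0.12), Pnpla2 0.086 with the correction (-0.39 without it), Dgat1 0.42 with the correction, 0.0058 without mitochondrial and structural RNA genes and 0.10 with 3 libraries out (-0.18 to 0.087), Dgat2 0.18 with the correction, 0.69 with the covariate and 0.13 with the replicate block (-0.67 to 0.19), and Lpin1 -0.16 to 0.062 with a library out. The interaction of Hilpda was 0.0022 without a filter and 0.60 with 3 libraries out (-0.28 to 0.12), that of Dgat1 0.061 and of Lpin1 -0.077 with the correction, and of Lpin1 -0.10 with 3 libraries out. The cause of these changes was not tested. Of all member values recomputed, 1140 kept direction and side of the threshold, 108 lost the call, 11 gained one and 49 reversed.

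The median log2 fold change of all genes in the TMM fit was 0.00477 in the interaction and -0.00148 over time in obese hosts. It was above 0.1 in the interaction with RLE (0.101), DESeq2 (0.102), no filter (0.197) and lean endpoint replicate 1 left out (0.112). Over time in obese hosts it was 0.156 without a filter. Without mitochondrial and structural RNA genes it was 0.123 over time in obese hosts and 0.121 in the interaction. A replicate block called 4392 of 16352 genes at the midpoint, 1923 higher and 2469 lower, with 6 members higher and 1 lower. Over time in obese hosts it called 11875 genes, 5760 of them lower, with 5 members lower. Over time in lean hosts it called 3727 genes. Own replicate numbers correlated best in 10 of 48 cases, so the block is no paired analysis. Dgat2 and G0s2 held 0 to 20 counts per library, and whether a difference could be detected at that depth was not tested.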

Other observations

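Lean endpoint replicate 4, left out of every comparison, can be read on chromosomes 1 to 4, where Plin2 and G0s2 lie. Scaled to the counts on these chromosomes alone, Plin2 was at 622.8 CPM there, below the 775.6 to 948.5 of the other 4 lean endpoint libraries and the 739.6 to 1192.0 of obese endpoint libraries. G0s2 had 0 counts in it, as in lean endpoint replicates 2, 3 and 5.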
